A study of Mus musculus with 21 samples.

Results

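The genes described here encode proteins with a CXXC zinc finger other than Cxxc5 and the Tet and Dnmt enzymes: Cxxc1, Kmt2a, Kmt2b, Kdm2a, Kdm2b, Fbxl19, Mbd1 and Cxxc4. They were chosen by name, with earlier results of these data known, and all 8 were found among the 24458 genes of the deposited embryoid body table. Of these, 7 passed a minimum mean FPKM of 1 over all libraries and were tested. Cxxc4 did not pass it and is described apart. FPKM counts sequenced fragments relative to transcript length and to the size of the library, so levels of different genes can be set side by side. Comparing libraries by FPKM also takes their RNA composition to be alike. Changes under other scalings are given below, in part only as counts of calls.

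The cells were V6.5 mouse ESCs (embryonic stem cells), of mixed 129/C57BL/6 background and at passages 15-18, in which Cxxc5, called Rinf by the submitters, was knocked out, and wild-type V6.5 ESCs. Both were grown in serum with LIF, the cytokine that keeps mouse ESCs undifferentiated. Embryoid bodies, aggregates in which ESCs differentiate into cells of several germ layers, were made by hanging drop and RNA was taken at days 0, 3 and 6. There were 2 libraries for knockout and 2 for wild type on each day, 12 in all, and the ESC lines behind the 2 replicates of a genotype were independent. Lines of 1 genotype can differ for reasons other than the genotype. All p-values measure the spread between these libraries. In the fit of all 12 it was 1 value per gene, pooled over genotypes and days. The sources used here do not give which part of Cxxc5 was deleted. The smallest p that an exact two-sided permutation test of 2 against 2 libraries allows is 0.333, so the tests are limma fits over all genes. A separate table held ESCs of both genotypes.

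The CXXC zinc finger is a small zinc-binding fold that recognises CpG dinucleotides without DNA methylation, which are dense in the CpG islands at many mammalian promoters. Proteins that carry it bring chromatin enzymes to those islands. Cxxc1 is a subunit of the SET1 complexes, which methylate histone H3 at lysine 4, and Kmt2a and Kmt2b are the catalytic subunits of related MLL complexes, with Kmt2b acting at bivalent promoters of ESCs. Kdm2a and Kdm2b are demethylases of histone H3 lysine 36, and Kdm2b recruits the Polycomb complex PRC1.1. Fbxl19 is an F-box protein that binds CpG islands in ESCs, Mbd1 also has a domain for methylated CpG, and Cxxc4 binds Dishevelled and inhibits Wnt signalling.

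Because CpG is what the domain binds, the 250 bases upstream of the RefSeq starts of these genes (build GRCm38.p6) are shown with CpG in capitals, 5′ to 3′ on the strand of the gene. Windows are given for 4 of the 8 genes, with 8 windows in all. Those of Cxxc1 and Mbd1 are not reported here. The 5 shown are the outermost listed start of each gene and, for Kdm2b, the innermost as well. The gene spans reach further out than these starts. Fbxl19 begins at chr7:127743887 and Cxxc4 at chr3:134236144, so their windows lie within the gene span. The Kmt2a window and the outermost Kdm2b window lie partly within theirs, and the innermost Kdm2b window wholly. No usable entry was found for Kmt2b, at chr7:30568855-30589056, or Kdm2a, at chr19:4316144-4398721, both on the minus strand. CG reads the same on both strands. Over all 32851 windows of that length in the same table the median was 6 CpG. The Kmt2a window, chr9:44881290-44881539 on the minus strand, held 29 CpG, and 6.78% of all windows held at least as many. Kdm2b has 4 windows on the minus strand. The outermost, chr5:122989100-122989349, held 27 CpG (8.56% of windows held at least as many), and the innermost, chr5:122900351-122900600, held 38 (1.88%). Those between them, not shown, held 12 CpG (chr5:122988508-122988757, 33.5%) and 36 CpG (chr5:122900368-122900617, 2.58%). Cxxc4, chr3:134236245-134236494 on the plus strand, held 20 CpG (17.9%), and Fbxl19, chr7:127746028-127746277 on the plus strand, held 12 (33.5%), with 14 (29.4%) at a second start that is not shown. All 8 windows were above the median. A count of CpG describes these letters only and says nothing of binding.
Kmt2a: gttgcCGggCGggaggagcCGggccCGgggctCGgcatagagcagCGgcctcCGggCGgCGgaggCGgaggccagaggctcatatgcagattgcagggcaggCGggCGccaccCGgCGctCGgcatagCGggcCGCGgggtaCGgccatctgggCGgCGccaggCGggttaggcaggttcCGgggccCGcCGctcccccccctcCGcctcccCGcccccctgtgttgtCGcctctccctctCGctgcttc
Kdm2b, outermost start: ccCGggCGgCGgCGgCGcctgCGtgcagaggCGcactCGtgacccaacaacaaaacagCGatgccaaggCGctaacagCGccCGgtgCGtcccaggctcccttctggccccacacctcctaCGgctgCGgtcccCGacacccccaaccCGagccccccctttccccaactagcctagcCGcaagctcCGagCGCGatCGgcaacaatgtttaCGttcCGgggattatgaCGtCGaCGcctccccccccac
Kdm2b, innermost start: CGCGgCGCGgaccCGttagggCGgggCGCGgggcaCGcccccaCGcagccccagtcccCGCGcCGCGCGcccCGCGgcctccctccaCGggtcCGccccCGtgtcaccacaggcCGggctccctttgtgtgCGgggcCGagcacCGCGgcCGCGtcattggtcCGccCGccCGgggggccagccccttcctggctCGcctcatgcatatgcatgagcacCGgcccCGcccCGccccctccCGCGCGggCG
Cxxc4: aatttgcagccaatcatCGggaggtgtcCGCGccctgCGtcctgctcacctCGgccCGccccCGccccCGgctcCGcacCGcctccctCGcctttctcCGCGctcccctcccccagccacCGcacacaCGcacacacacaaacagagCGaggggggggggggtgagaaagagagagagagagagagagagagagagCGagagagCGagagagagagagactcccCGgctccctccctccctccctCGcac
Fbxl19: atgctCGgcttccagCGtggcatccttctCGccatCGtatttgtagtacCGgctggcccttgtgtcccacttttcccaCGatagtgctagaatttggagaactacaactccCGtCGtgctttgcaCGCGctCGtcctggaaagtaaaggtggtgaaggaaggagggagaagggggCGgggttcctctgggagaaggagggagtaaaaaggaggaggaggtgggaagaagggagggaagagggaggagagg

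Cxxc5 itself had 6.87 and 8.64 FPKM in knockout and 31.4 and 25.1 FPKM in wild-type libraries at day 0, and knockout stayed below wild type in every library of days 3 and 6, in the direction of the labels. Estimated depth was 15.2 to 32.9 M reads a library. Replicates differed most at day 6, where 613 genes in knockout and 1070 in wild type differed by over 1.5-fold between the 2 libraries, against 149 to 216 in the groups of days 0 and 3. Pluripotency markers (6 genes) summed to 1431 to 1495 FPKM in knockout and 1484 to 1607 FPKM in wild type at day 0, in libraries labelled as embryoid bodies of that day. The marker sums differed at day 6, with overlap between the genotypes for the pluripotency markers only. Pluripotency markers summed to 120 to 318 FPKM in knockout and 283 to 624 FPKM in wild type, mesoderm markers (5) to 381 to 415 against 55.3 to 237 FPKM, and neuroectoderm markers (4) to 9.39 to 22.9 against 33.6 to 60.8 FPKM. Tubb3 was the highest of the neuroectoderm markers in every group. Their sum was already 57.6 to 62.3 FPKM in knockout and 59.5 to 79.4 FPKM in wild type at day 0. Extraembryonic endoderm markers (4) summed to 73.2 to 111 against 18.7 to 62.7 FPKM, and markers of the fibroblasts used as feeders (5) to 15.7 to 28.8 against 8.02 to 14.3 FPKM. Of the feeder markers, Col1a1, Twist2 and Fbn1 were higher in both knockout libraries of day 6, and Thy1 and Col1a2 overlapped. Thy1 had 2.82 and 1.61 FPKM in knockout and 3.55 and 2.69 FPKM in wild type. No marker of these lists was at 0 in both libraries of a day 6 group. Afp, of the extraembryonic endoderm markers, was near 0, at no more than 0.035 FPKM in any day 6 library. In bulk samples fewer cells of a type and less RNA per cell cannot be told apart.

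Kdm2b had the highest level of the 8 genes in all 6 groups, from a mean of 28.5 FPKM in day 0 knockout to 48.5 FPKM in day 3 wild type. Kmt2a, Mbd1 and Cxxc4 were the lowest, in that order, in every group. Kmt2a had group means of 10.4 to 14.5 FPKM, and Mbd1 did not pass 9.35 FPKM in any library. Fbxl19, Kmt2b, Kdm2a and Cxxc1 lay between, at group means of 19.1 to 37.4 FPKM, and changed places with day. Within that middle block several neighbours overlapped between libraries: Fbxl19 and Kmt2b in day 0 knockout, Kdm2a, Fbxl19 and Kmt2b in day 0 wild type, Kmt2b and Kdm2a in day 3 knockout, Cxxc1 and Fbxl19 in day 3 wild type, and Kdm2a and Cxxc1 in day 6 knockout.

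**Figure D1:**
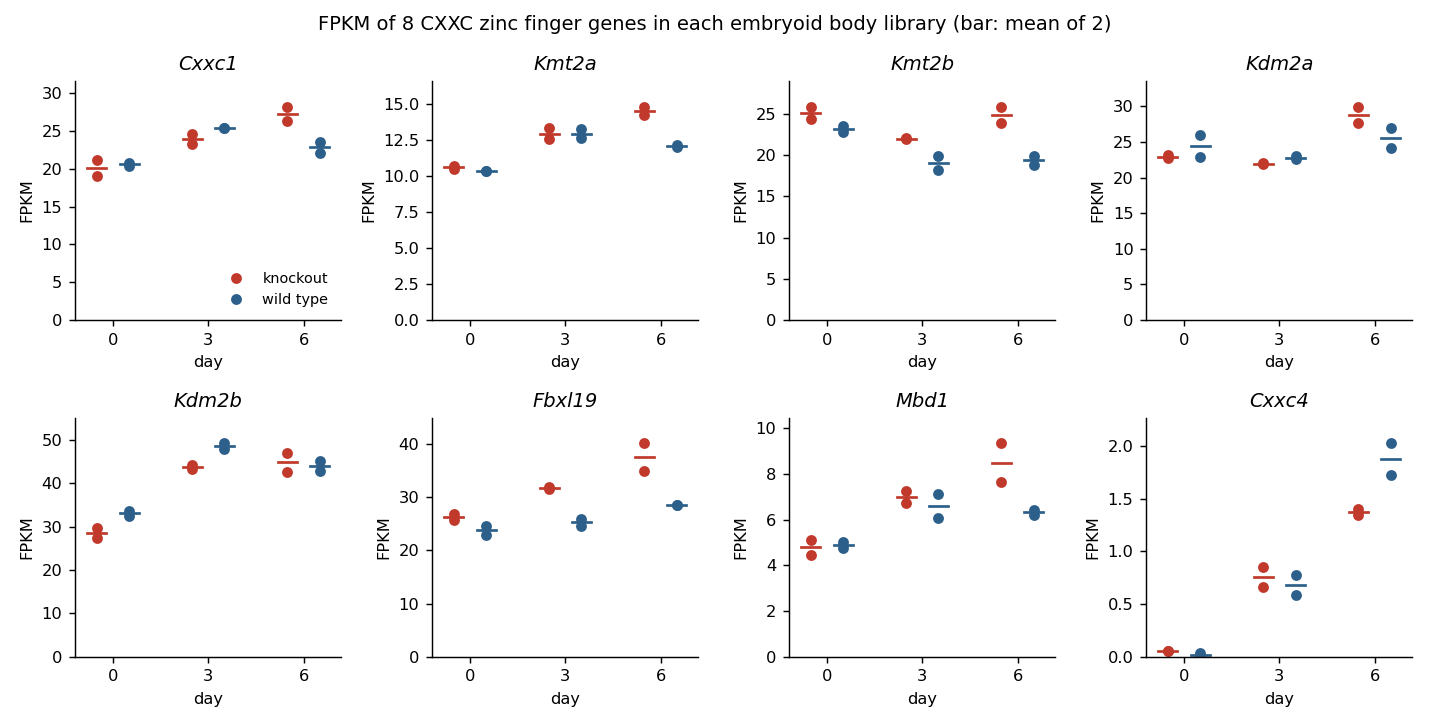
FPKM (vertical axis, from 0) of each gene by day, with 1 point per library, knockout left of wild type, and a bar at the mean of 2. At day 6 both knockout points lie above both wild-type points for Cxxc1, Kmt2a, Kmt2b, Kdm2a, Fbxl19 and Mbd1, and below them for Cxxc4.

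The first question is whether loss of Cxxc5 went with a change in the other CXXC genes. At day 6 it did for 5 of the 7 tested genes, all higher in knockout: Kmt2b, Fbxl19, Kmt2a, Cxxc1 and Mbd1 (limma, adjusted p under 0.05 over all 12472 genes). None was lower. Over all genes tested 34.1% were called at day 6, 17.9% higher and 16.2% lower. That is 2228 genes higher and 2021 lower, against 1406 and 2021 with each library scaled to the same total. In 6 of the 7 both knockout libraries stood above both wild-type libraries, as in 34.4% of all genes tested. The median difference of the 7 genes was 0.25 on the log2(FPKM + 1) scale, beside 0.021 for all genes tested. All 5 changes were below 1.5-fold.

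Among the methyltransferase genes, Kmt2b had 23.9 and 25.9 FPKM in day 6 knockout and 19.9 and 18.8 FPKM in day 6 wild type. The knockout libraries were both higher, and their mean was 1.29 times that of wild type (log2 difference 0.35, SE 0.065, limma adjusted p = 0.00554). Its paralogue Kmt2a had 14.2 and 14.8 FPKM in knockout and 12.2 and 12.0 FPKM in wild type, again without overlap (0.25, SE 0.055, limma adjusted p = 0.0109). Cxxc1, of the SET1 complexes, had 28.2 and 26.4 FPKM in knockout and 23.6 and 22.1 FPKM in wild type (0.25, SE 0.066, limma adjusted p = 0.0217). Kmt2b averaged 24.9 FPKM at day 6 and 25.1 FPKM at day 0 in knockout, and 19.4 FPKM at day 6 and 23.1 FPKM at day 0 in wild type, so its day 6 knockout level was near that of day 0.

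Of the genes with an F-box, Fbxl19 showed the widest gap. It had 34.8 and 40.1 FPKM in day 6 knockout and 28.47 and 28.49 FPKM in wild type, a ratio of means of 1.31 (log2 difference 0.38, SE 0.072, limma adjusted p = 0.00573). The wild-type libraries were almost equal and the knockout libraries both stood above them. The demethylase genes did not pass the test. Kdm2a had 27.6 and 29.9 FPKM in knockout and 24.1 and 26.9 FPKM in wild type (0.17, SE 0.076, limma adjusted p = 0.116). Kdm2b had 46.97 and 42.7 FPKM in knockout and 45.2 and 42.9 FPKM in wild type (0.023, SE 0.065, limma adjusted p = 0.805), and its libraries overlapped. Kdm2b shares exons on the opposite strand with Rnf34 (mean 27.8 FPKM) and A930024E05Rik (4.27 FPKM), and Kmt2a and Cxxc4 overlap antisense genes outside the table. The sources used here do not say whether counting used strand, so reads of a neighbour may be part of these levels.

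Mbd1, the reader of methylated CpG, had 7.67 and 9.35 FPKM in day 6 knockout and 6.43 and 6.21 FPKM in wild type. Its ratio of means, 1.35, was the largest of the 7 (log2 difference 0.37, SE 0.11, limma adjusted p = 0.0279). Calls of Kmt2b and Fbxl19 at day 6 held when any 1 of the 12 libraries was left out. Without wild-type day 6 replicate 2 the count was 3 (Kmt2a, Kmt2b and Fbxl19), and without knockout day 6 replicate 2 it was 3 (Cxxc1, Kmt2b and Fbxl19). Over all genes 857 were called higher and 1164 lower without knockout day 6 replicate 2, and 1253 higher and 1320 lower without wild-type day 6 replicate 1. The share of all genes called thus ran from 16.2% to 39.0% over the fits without 1 library. When only the 4 day 6 libraries were fitted, 0 of the 7 genes were called (of all genes 5 higher and 15 lower). The fit of all 12 libraries pools the spread over days. Its day 6 tests so rest in part on days 0 and 3, where fewer genes differed between replicates. With each library scaled to the same total 3 of the 7 were called (Kmt2b, Fbxl19 and Mbd1). The part of the day 6 differences in marker sums, given above, in these changes was not tested.

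**Figure D2:**
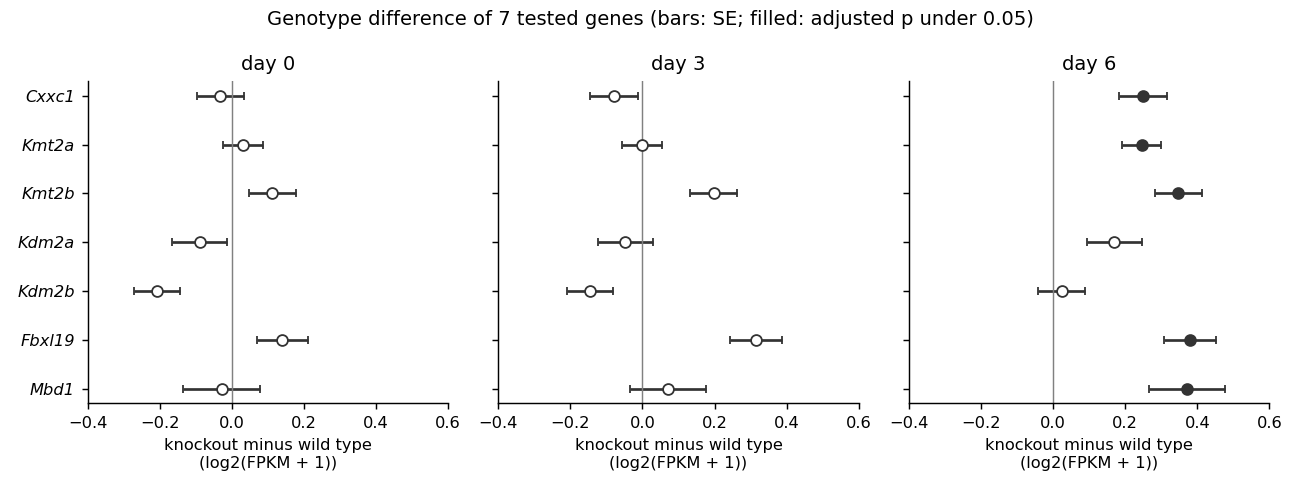
Difference between knockout and wild type on the log2(FPKM + 1) scale (horizontal axis) for the 7 tested genes, in a panel per day, with bars of 1 SE. Filled points, called by limma, appear at day 6 alone, for Cxxc1, Kmt2a, Kmt2b, Fbxl19 and Mbd1, between 0.25 and 0.38.

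Before day 6 no gene of the 7 passed the test. At day 0, limma called 0 of 7, with 0.369% of all genes called. At an unadjusted p under 0.05 there was 1 of 7, near the 14.7% of all genes. That 1 gene was Kdm2b, with 27.3 and 29.7 FPKM in knockout and 32.5 and 33.6 FPKM in wild type. Its knockout libraries were both lower (log2 difference -0.21, SE 0.065, limma adjusted p = 0.196). At day 3, limma again called 0 of 7, with 1.19% of all genes called. At an unadjusted p under 0.05 there were 2 of 7, beside 14.8% of all genes. Fbxl19 had 31.5 and 31.8 FPKM in knockout and 25.9 and 24.6 FPKM in wild type, a gap several times the distance between replicates (0.32, SE 0.072, limma adjusted p = 0.0862). Kmt2b had 22.02 and 22.00 FPKM in knockout and 19.9 and 18.2 FPKM in wild type (0.20, SE 0.065, limma adjusted p = 0.199). Fitted without the 4 day 6 libraries, an alternative added after the data were seen, Fbxl19 was called at day 3, as it also was without knockout day 6 replicate 1 or 2. Fbxl19 and Kmt2b were thus above wild type in both knockout libraries on all 3 days, with the difference called at day 6 only.

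The second question is how these genes changed as the cells differentiated. From day 0 to day 3 Kdm2b, the PRC1.1 recruiter, rose most of the 7 tested genes in both genotypes. It had 44.1 and 43.3 FPKM at day 3 and 27.3 and 29.7 FPKM at day 0 in knockout (log2 difference 0.60, SE 0.065, limma adjusted p = 1.25e-04). In wild type it had 47.8 and 49.2 FPKM at day 3 and 32.5 and 33.6 FPKM at day 0 (0.54, SE 0.065, limma adjusted p = 1.74e-04). Every day 3 library stood above every day 0 library. In knockout 5 of the 7 genes rose and 1 fell, with 52.6% of all genes called, 24.6% higher and 28.0% lower. In wild type 4 rose and 1 fell, with 55.7% of all genes called, 25.5% higher and 30.2% lower. Those shares make a call at this step common among all genes.

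Besides Kdm2b, Mbd1, Kmt2a and Cxxc1 rose in both genotypes between day 0 and day 3. Mbd1 had 6.72 and 7.24 FPKM at day 3 and 4.48 and 5.13 FPKM at day 0 in knockout (0.46, SE 0.11), with a log2 difference of 0.36 in wild type (limma adjusted p = 0.00638 and 0.0181). Kmt2a rose by 0.26 in knockout and 0.30 in wild type on the log2 scale (limma adjusted p = 0.00382 and 0.00183). Cxxc1 rose by 0.24 in knockout and 0.29 in wild type (limma adjusted p = 0.0148 and 0.00576). Fbxl19 rose in knockout (0.26, SE 0.072, limma adjusted p = 0.0145), and its wild-type difference was 0.086 (limma adjusted p = 0.338). Kmt2b went the other way. It had 22.02 and 22.00 FPKM at day 3 and 24.3 and 25.9 FPKM at day 0 in knockout, and it fell by 0.18 on the log2 scale (limma adjusted p = 0.0435). In wild type Kmt2b had 19.9 and 18.2 FPKM at day 3 and 23.5 and 22.8 FPKM at day 0, and fell by 0.27 (limma adjusted p = 0.00765). Kdm2a did not pass the test in either genotype (log2 differences of -0.057 in knockout and -0.098 in wild type).

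The fall of Kmt2b was not called under either other scaling: its log2 difference was -0.028 in knockout and -0.19 in wild type with libraries scaled to the same total, and -0.088 and -0.17 with quantile normalization. The knockout count at this step was 2 (Kmt2a and Kdm2b) without knockout day 0 replicate 1 and 3 (Kmt2a, Kdm2b and Mbd1) without knockout day 3 replicate 2. The difference between genotypes in this step was itself tested as an interaction. Limma called 0 of 7 (0 at an unadjusted p under 0.05, beside 7.67% of all genes), with 0.0401% of all genes called, and Fbxl19 had the widest interaction value (0.18, SE 0.10, limma adjusted p = 0.769).

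**Figure D3:**
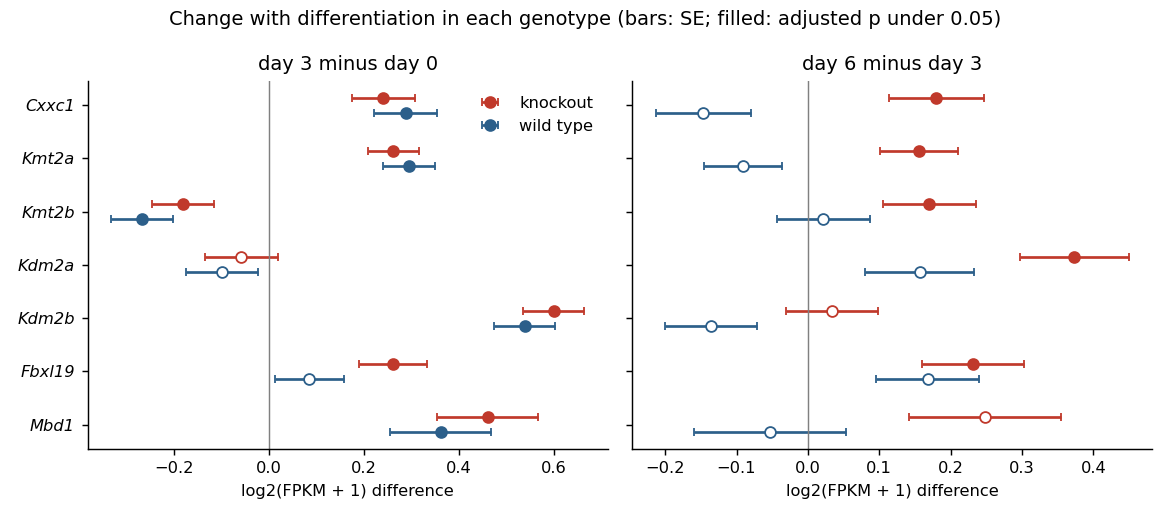
Difference between successive days on the log2(FPKM + 1) scale (horizontal axes, which differ in range) for the 7 tested genes, knockout above wild type, with bars of 1 SE and filled points where limma called the change. Kdm2b has the largest day 3 rise, at 0.60 and 0.54, and at day 6 the filled points are knockout points.

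Between day 3 and day 6 the knockout calls were Kdm2a, Fbxl19, Cxxc1, Kmt2b and Kmt2a, all higher at day 6, so 5 of 7, with 59.1% of all genes called and 29.2% called higher. Kdm2a, which had not passed the test earlier, had 27.6 and 29.9 FPKM at day 6 and 22.0 and 21.9 FPKM at day 3 in knockout (0.37, SE 0.076, limma adjusted p = 0.00313). Fbxl19 had 34.8 and 40.1 FPKM at day 6 and 31.5 and 31.8 FPKM at day 3 in knockout (0.23, SE 0.072, limma adjusted p = 0.0217). The other rises were 0.18 for Cxxc1, 0.17 for Kmt2b and 0.16 for Kmt2a (limma adjusted p = 0.0436, 0.0491 and 0.0355). Mbd1 (0.25, limma adjusted p = 0.0730) and Kdm2b (0.034, limma adjusted p = 0.674) did not pass.

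In wild type limma called 0 of 7 at that step, with 35.9% of all genes called. At an unadjusted p under 0.05 there was 1 of 7, beside 47.3% of all genes. The 1 gene was Fbxl19, with 28.47 and 28.49 FPKM at day 6 and 25.9 and 24.6 FPKM at day 3 (0.17, SE 0.072, limma adjusted p = 0.0983). Fbxl19 was called when either knockout day 6 library was left out. Cxxc1 had a wild-type log2 difference of -0.15 and Kmt2a one of -0.091, opposite in sign to their knockout rises. The interaction between genotype and this step was not called for any of the 7 by limma, with 4.51% of all genes called. At an unadjusted p under 0.05 there were 2 of 7, near the 25.2% of all genes. Those 2 were Cxxc1 (0.33, SE 0.094, limma adjusted p = 0.0845) and Kmt2a (0.25, SE 0.077, limma adjusted p = 0.103), so a rise particular to knockout was not shown. Over the fits without 1 library 0 of the 7 were called for this interaction, while the share of all genes ran from 0.537% without knockout day 3 replicate 1 to 17.3% without wild-type day 6 replicate 2. The knockout count rested on single libraries: it was 1 (Kdm2a) without knockout day 3 replicate 1 or 2, 2 (Cxxc1 and Kdm2a) without knockout day 6 replicate 2, and 3 without any 1 of the 4 day 0 libraries. It was also 1 (Kdm2a) when only the 4 knockout libraries of these days were fitted.

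Cxxc4, the Wnt inhibitor, was almost silent at day 0 and came up with differentiation. At day 0 it had 0.0538 and 0.0590 FPKM in knockout and 0.0313 and 0.00671 FPKM in wild type. At day 3 it had 0.848 and 0.660 FPKM in knockout and 0.772 and 0.587 FPKM in wild type, and at day 6 it had 1.40 and 1.35 FPKM in knockout and 1.72 and 2.02 FPKM in wild type. Each day lay above the one before in all libraries of both genotypes, and the knockout libraries of day 6 lay below the wild-type ones. Because its mean over the 12 libraries was below the minimum, it was tested only in the fit with no such minimum, over 20650 genes. There it rose at day 3 in knockout (0.73, SE 0.081, limma adjusted p = 3.32e-04; 17.5% of genes were called higher) and in wild type (0.72, SE 0.081, limma adjusted p = 2.81e-04; 18.6%). It rose again at day 6 by 0.44 in knockout (limma adjusted p = 0.00360; 21.6%) and by 0.77 in wild type (limma adjusted p = 0.00227; 11.8%). At day 6 it was lower in knockout than in wild type by a log2 difference of -0.27 (SE 0.081, limma adjusted p = 0.0488; 10.1% of genes were called lower). Calls of Cxxc4 were not tried with other scalings, smaller fits or libraries left out. The interaction with the step to day 6 did not pass (-0.34, SE 0.11, limma adjusted p = 0.167). On this scale the change of so low a gene is understated.

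Within a library the balance of the paralogous pairs can be read as a ratio of FPKM, given here with no test. In knockout, Kmt2b over Kmt2a was 2.27 and 2.46 at day 0, then 1.75 and 1.65 at day 3, then 1.68 and 1.75 at day 6. In wild type it was 2.27 and 2.20 at day 0, then 1.5 and 1.44 at day 3, then 1.64 and 1.57 at day 6. The ratio was therefore highest at day 0 in both genotypes, and at days 3 and 6 both knockout values were above both wild-type values. In knockout, Kdm2b over Kdm2a was 1.21 and 1.28 at day 0, then 2.00 and 1.98 at day 3, then 1.70 and 1.43 at day 6. In wild type it was 1.25 and 1.47 at day 0, then 2.08 and 2.18 at day 3, then 1.88 and 1.59 at day 6. This ratio was highest at day 3 in both genotypes. The gene-level values do not separate the products of the Kdm2b starts shown above, of which the shorter lack the demethylase domain.

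**Figure D4:**
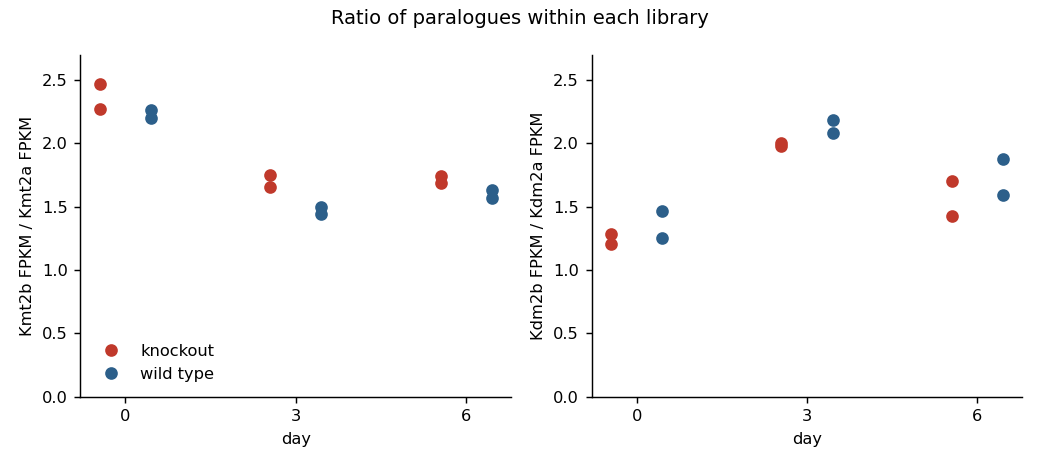
Ratio of FPKM within each library (vertical axes, from 0) of Kmt2b to Kmt2a and of Kdm2b to Kdm2a by day, with 1 point per library and knockout left of wild type. The first ratio lies between 2.20 and 2.46 at day 0 and between 1.44 and 1.75 afterwards, and the second peaks at day 3, between 1.98 and 2.18.

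The proteins act in complexes, so the other subunits were read from lists. The shares of all genes called at day 6, 17.9% higher and 16.2% lower in knockout by limma, are the background of the counts below. At day 6, of 15 COMPASS and MLL subunits 6 were higher and 2 lower in knockout, with a median log2 difference of 0.068 beside 0.021 for all genes. Kmt2d, the catalytic subunit of an enhancer-bound MLL complex, had 23.8 and 24.8 FPKM in knockout and 16.3 and 16.0 FPKM in wild type (0.56, limma adjusted p = 7.91e-04). Ncoa6, a subunit of the same complex, had a difference of 0.42, and Men1, the menin partner of Kmt2a and Kmt2b, one of 0.39 (limma adjusted p = 0.0176 and 0.0144). The lower ones were the H3 lysine 27 demethylase Kdm6a (-0.29) and the shared core subunit Rbbp5 (-0.25).

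Of 9 PRC1.1 subunits 2 were higher and 3 lower at day 6 in knockout (median 0.053), where 17.9% of all genes were higher and 16.2% lower. Bcorl1 had 11.6 and 14.3 FPKM in knockout and 5.81 and 8.96 FPKM in wild type (0.75, limma adjusted p = 0.0104), and its paralogue Bcor was higher by 0.50 (limma adjusted p = 0.00758). Skp1a, an adaptor shared with SCF ubiquitin ligases, had 169 FPKM in both knockout libraries and 240 and 222 FPKM in wild type (-0.45, limma adjusted p = 0.00158), and Rnf2, the ubiquitin ligase, was also lower (-0.34, limma adjusted p = 0.0136). The recruiter Kdm2b was not called in the same contrast.

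Of 8 genes of the Wnt pathway, which Cxxc4 inhibits, 4 were higher in knockout at day 6 and none lower (median 0.22), beside the same 17.9% and 16.2% of all genes. The 8 include activators and inhibitors of the pathway, and so do those called. Axin2, a feedback target of the pathway, had 31.6 and 30.5 FPKM in knockout and 10.4 and 22.5 FPKM in wild type (0.97, limma adjusted p = 0.0262). Dvl3 and Dvl1, which encode the Dishevelled proteins, differed by 0.53 and 0.44 (limma adjusted p = 0.00544 and 0.00782). Among the MBD family and Mbd1 partners 2 of 8 were higher and 1 lower (median 0.058), so 3 of 8 were called, near the 34.1% of all genes. Suv39h1, an H3 lysine 9 methyltransferase (0.83), and the methyl-CpG reader Mbd2 (0.35) were higher, and Zbtb33 was lower (-0.55). Of 7 SCF and Fbxl19 partners Rnf40, of the ligase for histone H2B, was higher (0.47), while Med13, of the Mediator kinase module (-0.47), and Skp1a were lower (median -0.022). Among the 4 other CXXC genes Dnmt1 was higher (0.31), Cxxc5 (-2.01) and Tet1 (-0.49) were lower, and Tet3 was not called.

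**Figure D5:**
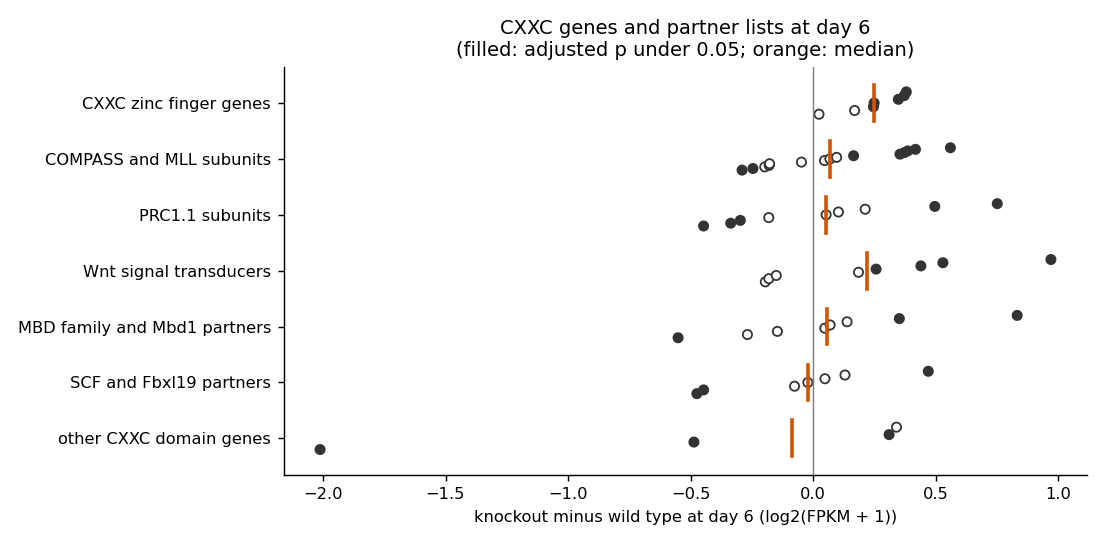
Difference between knockout and wild type at day 6 on the log2(FPKM + 1) scale (horizontal axis) for the 7 tested CXXC genes and 6 lists of other genes, 1 point per gene, filled where limma called it, with an orange bar at each median. The CXXC genes lie between 0.023 and 0.38 with a median of 0.25, while the partner lists spread to both sides of 0.

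At days 0 and 3 limma called no gene of the COMPASS, PRC1.1, Wnt, MBD and SCF lists between genotypes. At an unadjusted p under 0.05 there were 2, 3, 0, 2 and 1 genes of these lists at day 0, beside 14.7% of all genes, and 1, 1, 1, 0 and 1 at day 3, beside 14.8% of all genes. Between day 0 and day 3, 24.6% of all genes were called higher and 28.0% lower in knockout, and 25.5% higher and 30.2% lower in wild type. The core COMPASS subunit Ash2l had 95.2 and 101 FPKM at day 3 and 161 and 169 FPKM at day 0 in knockout, and fell by 0.74 on the log2 scale in knockout and by 0.71 in wild type (limma adjusted p = 5.68e-05 and 5.30e-05). In that step 3 COMPASS and MLL subunits rose and 5 fell in knockout, and 3 rose and 7 fell in wild type. Of the 9 PRC1.1 subunits 2 rose and 4 fell in either genotype, with Rnf2 among those that fell. Yaf2 was among those that rose, by 1.81 in knockout and 1.69 in wild type (limma adjusted p = 1.66e-05 and 1.59e-05). Of the Wnt pathway genes 6 of 8 rose and none fell in either genotype at that step. Of the 7 SCF and Fbxl19 partners none rose and 2 fell in both, near the share of all genes that fell. Among other CXXC genes Tet3 rose (1.38 in knockout, 1.54 in wild type), while Tet1 (-1.77 and -1.84) and Dnmt1 (-0.30 and -0.44) fell.

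Across the 12 libraries, which share the day and genotype design, Pearson correlations on log2(FPKM + 1) describe which genes ran most alike. Among the 8, Kmt2a and Mbd1 were closest (r = 0.963), then Cxxc1 and Kmt2a (0.928), and Kmt2b and Kdm2b were the most opposed (-0.61). Over all genes tested the closest to Kmt2a were Sirt2 (0.975), Crebbp (0.974) and Cgref1 (0.972), and Crebbp was also among the 3 closest to Cxxc1 (0.946) after Ncoa5 (0.954) and Camsap1 (0.951). Kmt2b ran most like Zfp553 (0.944), Piezo1 and Bcl7b, and Kdm2a most like Lrch3 (0.986), Sbf2 and Setd5. The closest to Kdm2b was Usp51 (0.980), followed by Dtnbp1 and Tro. Fbxl19 ran most like Stxbp2 (0.976), Myh9 and Igf2r, Mbd1 most like Lman2 (0.972) and Ptpn23, and Cxxc4 most like Zfp113 (0.992), Ltb and Tbc1d16.

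The ESC table, a separate experiment, gives its entries by genotype, with more entries than labelled samples, so only the mean of each genotype is given and no test was made. No gene of the 8 differed by 1.5-fold, and 1.04% of 11133 genes did. Kmt2b averaged 33.1 FPKM in knockout and 32.2 FPKM in wild type, Kmt2a 17.1 and 16.9 FPKM, and Fbxl19 39.4 and 38.4 FPKM. Kdm2b averaged 21.1 FPKM in knockout and 23.1 FPKM in wild type, Kdm2a 20.4 and 21.9 FPKM, Cxxc1 19.8 and 22.1 FPKM, and Mbd1 4.06 and 4.75 FPKM. Cxxc4 averaged 0.0279 FPKM in knockout and 0.0339 FPKM in wild type, on 5 and 6 fragments in all, which is too few to compare. Fbxl19 was the highest of the 8 there, where Kdm2b was highest in day 0 embryoid bodies. The tables were made separately, and their levels are set side by side without a test.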

How the data were processed

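RNA from 12 embryoid body libraries and from ESCs was sequenced by the submitters. Per the submitters' processing notes, Trim Galore 0.4.1, TopHat2 2.0.13, Cufflinks 2.2.1 and HTSeq 0.6.1 were used on the mm10 build. The authors deposited FPKM per gene for each embryoid body library, and for ESCs a table, by condition, of FPKM and estimated counts of fragments. The sources used here do not give the annotation or the use of strand. All 92 spike-in rows were at 0 in the embryoid body table and were left out. Depth was estimated from the steps of low FPKM values, of which 56.0% to 63.1% a library lay within 0.1 of a whole read, so no count test was made.

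From the deposited FPKM, log2(FPKM + 1) was fitted with limma 3.58.1 in R 4.3.3, 1 mean per genotype and day over the 12 libraries with a variance trend, for the 12472 genes whose mean FPKM reached 1. Tests were two-sided, with Benjamini-Hochberg adjustment over those genes and a threshold of 0.05. Differences are knockout minus wild type or later minus earlier day, and the log2(FPKM + 1) scale understates changes of low genes. The script was tested on simulated data. Named genes are the 8 CXXC genes, Cxxc5 as the label check, the 3 most correlated genes of each (1 is not reported here), and up to 3 called genes per partner list and comparison with the largest differences. The members and lists were chosen with earlier results of these data known. Alternatives were another pseudocount, no minimum, other scalings, smaller fits, a replicate block and leaving out each library. The binding data of the series were not used here.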

Additional observations from a re-analysis of the deposited data

How the results depend on the processing

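With a pseudocount of 0.1, no minimum, other scalings, smaller fits and the replicate block, 375 values of single genes kept direction and call, 24 lost the call, 4 gained it and 10 changed sign. Calls between genotypes at day 6 numbered 5, against 3 with libraries scaled to the same total and 0 with only the groups compared. For day 6 against day 3 in knockout they numbered 5, against 2 with the same total and 1 with only the groups compared. In wild type at that step they numbered 0, against 1 with no minimum (Cxxc4) and 2 with quantile normalization (Kdm2a and Fbxl19). Between genotypes at day 3 they numbered 0, against 1 without the 4 day 6 libraries, a fit added after the data were seen. The smaller fits have fewer samples, and the other causes were not tested.

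Leaving out each library gave 0 to 1 calls between genotypes at day 3, 3 to 5 at day 6, 2 to 6 for day 3 against day 0 in knockout and 4 to 5 in wild type, 1 to 5 for day 6 against day 3 in knockout and 0 to 1 in wild type. By the labels, libraries of equal replicate number share only that number. Replicate deviations correlated between -0.081 and 0.083 except for day 6 knockout with day 6 wild type (0.243). What the day 6 libraries of equal number may share was not tested. With the replicate block there were 0, 0 and 5 calls between genotypes at days 0, 3 and 6, 6 and 5 for day 3 against day 0 in knockout and wild type, and 4 and 0 for day 6 against day 3.

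Values near 0 changed sign, none of them a call. With the same total the difference between genotypes became -0.0059 for Kmt2a at day 0, 0.028 for Kmt2a at day 3 and -0.023 for Kdm2b at day 6, that of day 3 against day 0 in knockout 0.098 for Kdm2a, and that of day 6 against day 3 in wild type 0.033 for Mbd1. The interactions became 0.021 (Cxxc1) and 0.034 (Kmt2a) at day 3 and -0.012 (Fbxl19) at day 6. With quantile normalization Kdm2a at day 3 became 0.027 in knockout and 0.0031 in wild type. Over the fits without 1 library, differences between genotypes ran from -0.10 to 0.040 (Cxxc1) and -0.11 to 0.053 (Mbd1) at day 0, -0.041 to 0.038 (Kmt2a) and -0.029 to 0.17 (Mbd1) at day 3 and -0.044 to 0.091 (Kdm2b) at day 6. Those of day 6 against day 3 ran from -0.034 to 0.10 for Kdm2b in knockout and, in wild type, -0.038 to 0.081 for Kmt2b and -0.15 to 0.047 for Mbd1. Interactions at day 3 ran from -0.12 to 0.023 (Cxxc1), -0.072 to 0.0065 (Kmt2a), -0.045 to 0.13 (Kdm2a) and -4.7e-04 to 0.20 (Mbd1), and at day 6 from -0.035 to 0.16 (Fbxl19). The same total moved the median of all genes in the knockout step to day 3 to 0.12, with 3941 higher and 1973 lower calls against 3072 and 3490. In wild type it gave 3533 higher and 2778 lower against 3183 and 3766 at that step, and 2584 and 1204 against 2176 and 2300 at the next. Between genotypes at day 6 it gave 1406 higher and 2021 lower, against 2228 and 2021.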
